A study of Mus musculus with 20 samples.

Results

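The HoxB cluster is a row of 10 homeobox genes on mouse chromosome 11. Its members were taken from the deposited expression tables by gene name (Hoxb1 to Hoxb9 and Hoxb13), which gave 10 of the 54446 gene IDs listed. Of the 10, 9 had a mean of at least 1 TPM (a transcript level that takes account of length and of library size) over the 15 bulk libraries and entered the tests among 14290 genes. Hoxb13 did not, and is given by its values alone.

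All libraries came from structures grown from mouse embryonic stem cells of the strain F1G4 with the double reporter T::H2B-mCherry/Sox2::H2B-Venus, and all aggregates had received a pulse of 3 µM CHIR99021, an activator of WNT signalling, at 48 h. The 5 groups of 3 biological replicates were 96h (TLS precursors at 96 h, 10 structures pooled per library) and 4 groups at 120 h with 6 structures per library. These were Gastruloid (120 h without the gel), TLSMG (in matrigel, a basement membrane gel), TLSMGC (in matrigel with further CHIR) and TLSMGCL (in matrigel with CHIR and LDN, an inhibitor of BMP receptors), and the doses of the added CHIR and LDN are not given in the sources used here. Structures were picked for an asymmetric pole, time and pool size differ together between 96h and the other groups, and 5 single-cell samples were not analysed here.

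Hox genes encode transcription factors that give cells along the head-to-tail axis their position. In the embryo the genes of a cluster are switched on in the order in which they lie on the chromosome, from the 3′ end (Hoxb1) to the 5′ end (Hoxb9, Hoxb13), and the later genes mark more posterior tissue. HOX proteins bind DNA together with PBX and MEIS partners, and retinoic acid, WNT, FGF and CDX proteins are known to act on the clusters.

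In the tables the cluster spanned chromosome 11 from 96194316 to 96368256 (build GRCm38, 173941 bases), with every member on the plus strand. Hoxb9 (ENSMUSG00000020875.9) started 94295 bases from the start of Hoxb1 (ENSMUSG00000018973.2), and Hoxb13 (ENSMUSG00000049604.3) ended 74010 bases short of Hoxb9. RefSeq promoter windows for build GRCm38 were matched for 3 of the 10 members, Hoxb1, Hoxb4 and Hoxb8. The 250 bases before the RefSeq start are shown for Hoxb1 and Hoxb8. Hoxb1 is first in the cluster and had the largest change in TLSMG against 96h. Hoxb8 had the largest change with added CHIR. For Hoxb1 the gene start in the deposited data, 96365752, lies inside the window, and distances below are from the RefSeq start. Capitals mark matches to the motifs searched on both strands, which were AGGTCA (bound by retinoic acid receptors), its direct repeats with 2 or 5 bases between them, TTTATG (CDX), CTTTGA (TCF/LEF) and TGATNNAT (HOX with PBX).
Hoxb1, chr11:96365508-96365757, plus strand: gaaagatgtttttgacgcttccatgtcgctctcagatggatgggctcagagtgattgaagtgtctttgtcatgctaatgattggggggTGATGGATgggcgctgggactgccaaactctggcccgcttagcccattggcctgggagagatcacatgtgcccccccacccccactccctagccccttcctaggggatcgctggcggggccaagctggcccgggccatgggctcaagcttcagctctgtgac
Hoxb8, chr11:96281655-96281904, plus strand: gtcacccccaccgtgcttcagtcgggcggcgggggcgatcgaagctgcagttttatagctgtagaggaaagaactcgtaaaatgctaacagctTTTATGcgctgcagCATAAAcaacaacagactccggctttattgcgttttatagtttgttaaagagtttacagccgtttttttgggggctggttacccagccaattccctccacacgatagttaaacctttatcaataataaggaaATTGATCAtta

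The Hoxb1 window held TGATGGAT, a match to TGATNNAT that began 162 bases before the start, and no other match. The Hoxb8 window held 2 matches to TTTATG, beginning 157 bases (plus strand) and 143 bases (minus strand, read as CATAAA) before the start, and 1 match to TGATNNAT beginning 11 bases before it. The Hoxb4 window held 1 match to AGGTCA. Over 32851 RefSeq windows of 300 bases, TGATNNAT occurred in 8.85%, TTTATG in 11.9% (at 2 or more places in 1.27%), AGGTCA in 16.3%, CTTTGA in 16.0% and each direct repeat in 0.00913%. These matches are letters in a window and not measured binding. The GC content was 59.2% for Hoxb1 and 44.4% for Hoxb8, against a median of 52.4% over all windows.

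Levels are described first, from the 3′ end. Hoxb1, whose protein patterns the hindbrain, stood at 227, 228 and 224 TPM in the 96h libraries. It was at 37.9, 42.2 and 50.9 TPM in Gastruloid and at 34.7, 36.9 and 41.8 TPM in TLSMG. In TLSMGC it was at 59.6, 47.9 and 62.6 TPM, and in TLSMGCL at 71.3, 62.4 and 63.5 TPM. Every 96h library lay above every library at 120 h, and the TLSMGC and TLSMG libraries did not overlap.

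Hoxb2, another gene of hindbrain patterning, had 106 ± 3.11 TPM at 96h (mean ± SD, n = 3 in each group here and below). Its level was 58.2 ± 2.30 TPM in Gastruloid, 60.2 ± 4.69 TPM in TLSMG, 44.9 ± 5.14 TPM in TLSMGC and 45.8 ± 1.02 TPM in TLSMGCL. Hoxb3 had the narrowest range among the tested members, with means from 28.7 ± 3.61 TPM in TLSMGCL to 41.3 ± 3.94 TPM in TLSMG. Hoxb4 was at 36.3 ± 1.61 TPM at 96h, 19.0 ± 3.31 TPM in Gastruloid and 30.7 ± 3.24 TPM in TLSMG. With added CHIR its level was 24.2 ± 1.95 TPM, and with CHIR and LDN 24.5 ± 2.88 TPM.

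In the middle of the cluster, Hoxb5 was at 25.9, 27.9 and 33.5 TPM in the 96h libraries. In Gastruloid it was at 9.73, 9.47 and 8.75 TPM and in TLSMG at 14.1, 14.4 and 15.1 TPM. In TLSMGC its values were 8.40, 6.57 and 6.60 TPM, and in TLSMGCL 8.30, 5.69 and 6.16 TPM. The 96h, Gastruloid and TLSMG libraries formed 3 ranges that did not overlap, with TLSMG between the other two. Hoxb6 was at 18.5 ± 3.40 TPM at 96h, 21.3 ± 2.41 TPM in Gastruloid and 24.4 ± 0.933 TPM in TLSMG, and at 12.8 ± 2.07 and 10.5 ± 2.63 TPM in TLSMGC and TLSMGCL.

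For Hoxb7, Hoxb8 and Hoxb9, towards the 5′ end, the highest means were those of Gastruloid. Hoxb7 was at 4.40, 6.09 and 10.1 TPM in the 96h libraries, and its mean was 25.4 ± 1.77 TPM in Gastruloid, 22.2 ± 1.42 TPM in TLSMG, 16.4 ± 0.837 TPM in TLSMGC and 15.0 ± 0.765 TPM in TLSMGCL. Hoxb8, a gene of the thoracic trunk, was at 14.6, 10.92 and 10.97 TPM at 96h. In Gastruloid it reached 53.5, 46.4 and 45.5 TPM and in TLSMG 39.7, 48.3 and 43.8 TPM. In TLSMGC it was at 12.8, 15.0 and 8.00 TPM and in TLSMGCL at 21.01, 16.6 and 16.0 TPM. The TLSMGC libraries thus overlapped the 96h libraries for Hoxb8 and lay below those of TLSMGCL.

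Hoxb9, which with its paralogs patterns the thoracic skeleton, was at 34.8, 51.6 and 71.1 TPM at 96h. Its values were 354, 312 and 302 TPM in Gastruloid and 248, 341 and 286 TPM in TLSMG. In TLSMGC they were 93.9, 101 and 110 TPM and in TLSMGCL 98.8, 104 and 87.1 TPM. The groups fell into 3 ranges without overlap, with 96h lowest and the 2 groups without added CHIR at 120 h highest. Hoxb13, the most 5′ member and a gene of the tail end, was listed at 0 in all 3 libraries at 96h and did not exceed 0.293 TPM in any library.

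**Figure D1:**
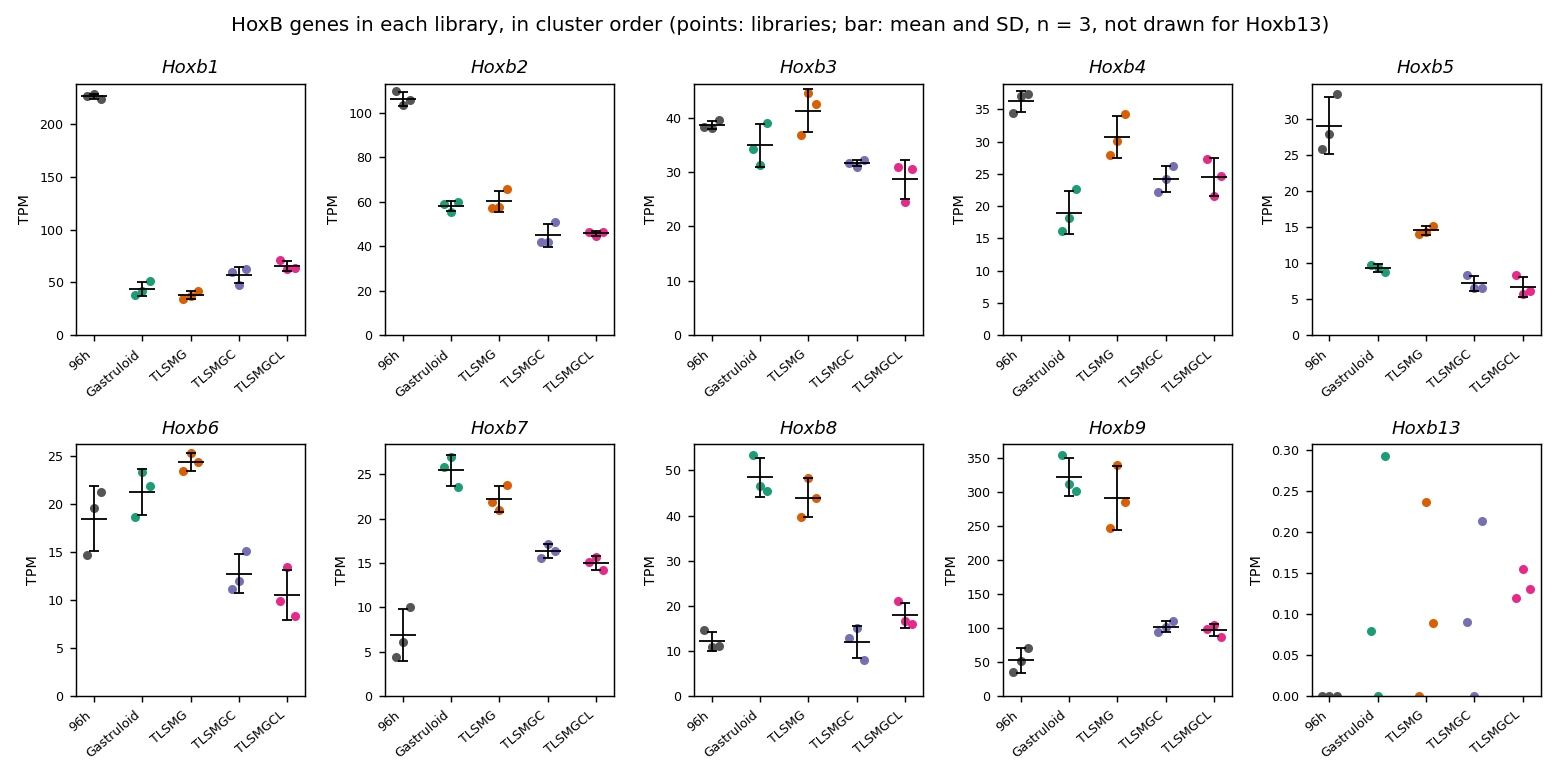
TPM (y axis, from 0, scaled per gene) of each HoxB gene in the 5 groups (x axis), 1 point per library, with the mean and SD over 3 libraries except for Hoxb13. Hoxb1 is highest at 96h (224 to 228 TPM), Hoxb8 and Hoxb9 are highest in Gastruloid and TLSMG, and no library exceeds 0.293 TPM for Hoxb13.

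Replicates lay close together for most members and groups. The coefficient of variation ran from 1.00% to 42.4% over the 45 pairs of a tested member and a group, with a median of 9.56%, and was under 20% in 40. The highest was that of Hoxb7 at 96h, and that of Hoxb9 at 96h was 34.6%. Mean read depth over a member's exons ran from 5.88 (Hoxb7) to 872 (Hoxb9) among the tested members and from 0 to 0.680 for Hoxb13.

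The order of the members by TPM was not the same in all groups. At 96h it was Hoxb1, Hoxb2, Hoxb9, Hoxb3, Hoxb4, Hoxb5, Hoxb6, Hoxb8, Hoxb7, and Hoxb9 and Hoxb3 were the only neighbours in that order whose libraries overlapped. In Gastruloid and TLSMG the highest was Hoxb9, followed without overlap by Hoxb2. Hoxb8, Hoxb1 and Hoxb3 came next in Gastruloid, and Hoxb8, Hoxb3 and Hoxb1 in TLSMG, with overlap between neighbours within each trio. With added CHIR the order began Hoxb9, Hoxb1, Hoxb2, Hoxb3, Hoxb4 in both TLSMGC and TLSMGCL, and Hoxb1 overlapped Hoxb2 in TLSMGC. Hoxb5 was the lowest of the tested members in each group at 120 h.

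Summed over the 10 members, HoxB transcripts made up 527 ± 25.3 TPM at 96h, 583 ± 23.3 TPM in Gastruloid, 567 ± 58.6 TPM in TLSMG, 307 ± 18.1 TPM in TLSMGC and 312 ± 16.4 TPM in TLSMGCL. Hoxb1 to Hoxb4 took 77.5% ± 3.90 of that sum at 96h, 26.8% ± 2.99 in Gastruloid and 30.1% ± 2.44 in TLSMG. With added CHIR they took 51.2% ± 1.96, and with CHIR and LDN 52.9% ± 3.01. Hoxb1 alone had a share of 43.0% at 96h, 7.51% in Gastruloid and 6.69% in TLSMG, and Hoxb9 had 9.87%, 55.3% and 51.2% in the same groups. These sums and shares were not tested.

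**Figure D2:**
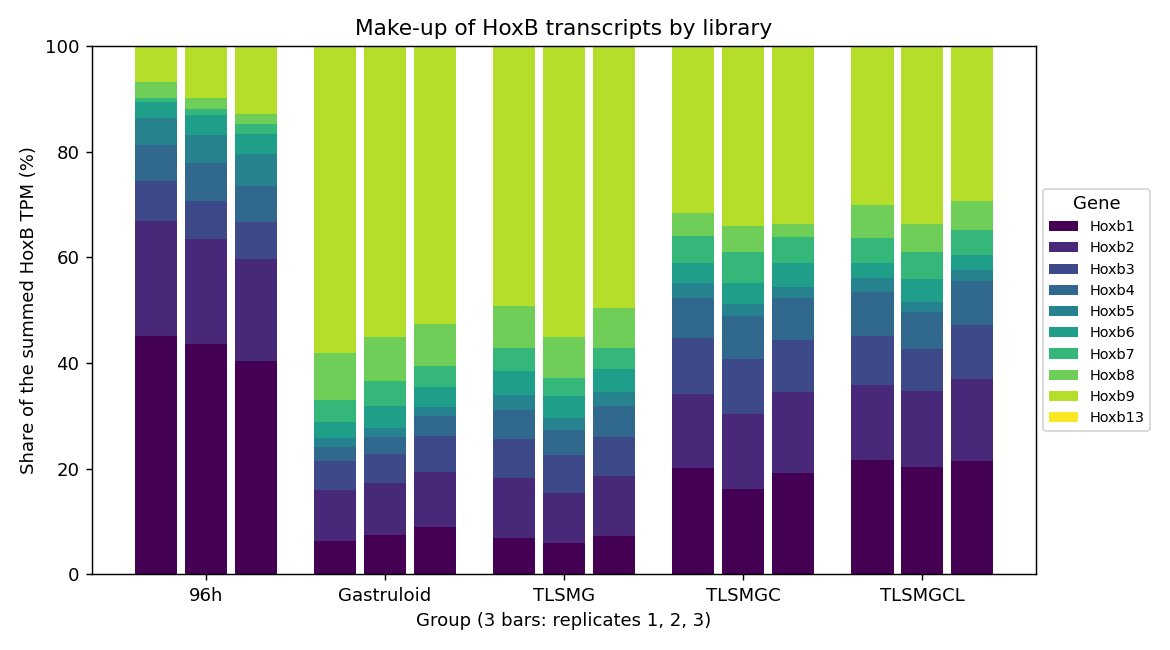
Share of the summed HoxB TPM (y axis, percent) taken by each member in each library (bars, 3 per group). Hoxb1 to Hoxb4, the 4 lowest segments, take 77.5% on average at 96h, 26.8% in Gastruloid and 51.2% in TLSMGC, and Hoxb13 is too low to be seen.

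The comparisons below are differences in log2(TPM + 1), first group minus second, with standard errors and adjusted p-values from limma's moderated test (Benjamini-Hochberg over the 14290 genes, threshold 0.05). They share libraries (96h in 3, TLSMG in 3, Gastruloid and TLSMGC in others), so their values are given side by side and not as independent support for one another. In bulk samples, fewer cells of a type and less RNA per cell cannot be told apart.

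Between 96h and Gastruloid, the 3′ genes were lower at 120 h and the 5′ genes higher. Hoxb1 was 5.18-fold lower by mean TPM, at a log2 difference of -2.36 ± 0.11 (SE, adjusted p 2.58e-09). Hoxb2 fell by 0.86, Hoxb4 by 0.91 and Hoxb5 by 1.54 on the log2 scale. Hoxb7 rose by 1.81, Hoxb8 by 1.92 and Hoxb9 by 2.65 ± 0.19 (SE, adjusted p 1.38e-07), which for Hoxb9 was a 6.15-fold higher mean TPM. Hoxb3 (-0.15, adjusted p 0.259) and Hoxb6 (0.20, adjusted p 0.349) did not pass.

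In all, 3 of the 9 tested members rose and 4 fell, and the groups did not overlap for any of these 7. The share of all genes whose groups did not overlap was not computed, here or in the comparisons below. Counts of members without overlap are therefore descriptions and cannot be set against all genes. Of all genes, 20.8% rose and 20.5% fell (2969 and 2925 genes, or 3931 and 2371 on the authors' FPKM values). The median absolute log2 difference was 1.54 for the members and 0.25 for all genes.

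Between 96h and TLSMG the values ran the same way along the cluster. Hoxb1 fell by 2.56 (adjusted p 1.28e-09), Hoxb2 by 0.81 and Hoxb5 by 0.95, while Hoxb7 rose by 1.63, Hoxb8 by 1.78 and Hoxb9 by 2.50 (adjusted p 2.24e-07). Hoxb3 (0.09, adjusted p 0.485), Hoxb4 (-0.24, adjusted p 0.125) and Hoxb6 (0.40, adjusted p 0.0643) did not pass. Thus 3 of 9 members rose and 3 fell, where 33.5% of all genes rose and 12.5% fell (4792 and 1785 genes), and none of the 6 had overlapping groups. On these TPM values the share of members that rose was near that of all genes. The members' median absolute log2 difference was 0.95 against 0.28 for all genes.

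That split of all genes moved with the scaling. The median log2 difference of all genes in TLSMG against 96h was 0.14, and under median-of-ratios scaling -0.01, with 3194 genes higher and 3299 lower (3950 and 2457 on FPKM). Under that scaling Hoxb1 was at -2.72 and Hoxb9 at 2.33, the other calls kept their direction, Hoxb3 was at -0.08, and Hoxb4 passed at -0.40 (adjusted p 0.00697; on FPKM -0.31, adjusted p 0.0264). Hoxb6 passed when the 96h replicate 3 was left out (0.50, adjusted p 0.0433) and when only the 2 groups were fitted (adjusted p 0.0409).

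**Figure D3:**
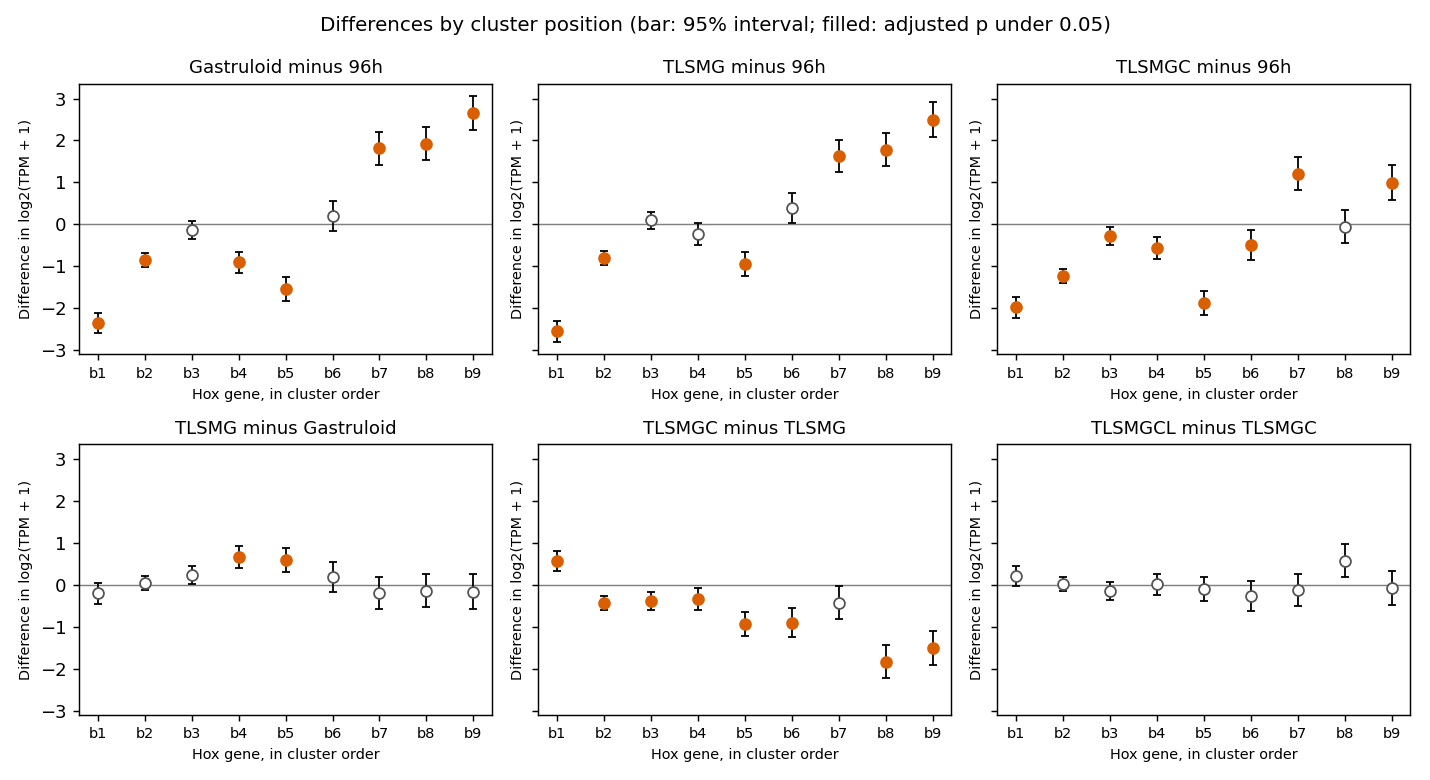
Difference in log2(TPM + 1) (y axis) of the 9 tested members in cluster order (x axis, b1 for Hoxb1 to b9 for Hoxb9) in the 6 comparisons, with 95% intervals, and filled points where the adjusted p is under 0.05. From 96h to Gastruloid the values run from -2.36 for Hoxb1 to 2.65 for Hoxb9, and in TLSMGCL minus TLSMGC no point is filled.

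Matrigel alone was compared as TLSMG against Gastruloid. Hoxb4 was 1.62-fold higher in TLSMG by mean TPM (log2 difference 0.67 ± 0.12 SE, adjusted p 0.000973) and Hoxb5 1.56-fold higher (0.59 ± 0.13 SE, adjusted p 0.00347), in both cases without overlap. The other 7 tested members did not pass, with log2 differences from -0.20 (Hoxb1) to 0.24 (Hoxb3, adjusted p 0.0752). So 2 of 9 members rose and 0 fell, where 31.5% of all genes rose and 7.87% fell. On these TPM values the members' share did not exceed that of all genes. Fewer of all genes rose on the other scales given below, so this comparison of shares depends on the scaling. At Hoxb9 the 95% interval of the difference ran from -0.57 to 0.26, so the data leave room for changes of that size.

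The scaling mattered here as well. The median of all genes was 0.13 (4497 genes higher, 1125 lower) and under median-of-ratios scaling -0.02 (2763 higher, 2594 lower; 2710 and 2705 on FPKM). Hoxb4 was then at 0.51 and Hoxb5 at 0.43, both still past the threshold. Hoxb1 passed as lower (-0.36, adjusted p 0.0157; on FPKM -0.36, adjusted p 0.0169), and Hoxb2 went from 0.05 to -0.12 without passing. Without Gastruloid replicate 3 Hoxb3 passed (adjusted p 0.0303), and so it did without TLSMG replicate 1 (adjusted p 0.0347).

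Added CHIR was compared as TLSMGC against TLSMG, and Hoxb1 was the only tested member that rose. It was 1.50-fold higher with CHIR (log2 difference 0.57 ± 0.11 SE, adjusted p 0.00141). Hoxb8 was 3.69-fold lower (-1.83 ± 0.18 SE, adjusted p 4.58e-06) and Hoxb9 2.86-fold lower (-1.50 ± 0.19 SE, adjusted p 3.93e-05). Hoxb5 fell by 0.93 and Hoxb6 by 0.90, Hoxb2 by 0.42, Hoxb3 by 0.37 and Hoxb4 by 0.33. Hoxb7 was at -0.42 (adjusted p 0.0805) and passed only in the fit of these 2 groups alone (adjusted p 0.00876).

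Thus 1 of 9 members rose and 7 fell without overlap, where 10.4% of all genes rose and 30.5% fell. On these TPM values the members stood above all genes in the share that fell and near them in the share that rose. The median of all genes was -0.16 (1490 genes higher, 4352 lower) and under median-of-ratios scaling -0.01 (2621 higher, 2685 lower; 2195 and 3167 on FPKM). Under that scaling Hoxb1 was at 0.73, Hoxb8 at -1.68 and Hoxb9 at -1.34, and the other calls held except Hoxb4 (-0.17, adjusted p 0.216; on FPKM -0.21, adjusted p 0.125). The Hoxb4 call also ended without the filter on low values (adjusted p 0.0753) and when TLSMG replicate 2 (0.0766) or 3 (0.155) or TLSMGC replicate 1 (0.126) or 2 (0.0796) was left out, given as adjusted p-values.

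Set against 96h, TLSMGC had lower Hoxb1 (-1.99), Hoxb2 (-1.23), Hoxb4 (-0.57) and Hoxb5 (-1.88, a 4.05-fold lower mean TPM) and higher Hoxb7 (1.21) and Hoxb9 (1.00), with adjusted p-values from 2.06e-08 (Hoxb1) to 0.00191 (Hoxb4). Hoxb8 did not pass (-0.06, 95% interval -0.45 to 0.34). Hoxb3 (-0.28, adjusted p 0.0375) and Hoxb6 (-0.50, adjusted p 0.0275, with overlapping groups) passed as lower. In total 2 of 9 members rose and 6 fell, 7 of these 8 without overlap, where 20.6% of all genes rose and 20.1% fell. The Hoxb3 call ended without any 1 of the 6 libraries (adjusted p 0.0621 to 0.0966) and without the filter (0.0637). That of Hoxb6 ended without the filter (0.0589) and without 96h replicate 2 (0.0857) or 3 (0.111) or TLSMGC replicate 1 (0.100) or 2 (0.0788), all as adjusted p-values.

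LDN on top of CHIR was compared as TLSMGCL against TLSMGC, where 0 of 9 members passed in either direction, and 0.406% of all genes rose and 0.777% fell (58 and 111 genes, 103 and 99 under median-of-ratios scaling, 98 and 121 on FPKM). At an unadjusted p under 0.05 limma had 1 member and 1850 genes. That member was Hoxb8, with 17.9 ± 2.72 against 11.9 ± 3.57 TPM and groups that did not overlap (log2 difference 0.58, 95% interval 0.18 to 0.97, adjusted p 0.175). Hoxb9 was at -0.07 with an interval of -0.49 to 0.34, and Hoxb1 at 0.22 with an interval of -0.03 to 0.46. The number of genes called in all of 169 fell to 56 without TLSMGC replicate 2, 70 without TLSMGCL replicate 1 and 78 without TLSMGCL replicate 3, and to 42 in the fit of the 2 groups alone.

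The cluster also holds genes on the opposite strand. Hoxb5os, an antisense gene whose span covers Hoxb5 and Hoxb6 (chromosome 11, 96291024 to 96306910, minus strand), was at 43.7 ± 5.55 TPM at 96h, 332 ± 49.6 TPM in Gastruloid, 183 ± 18.9 TPM in TLSMG, 101 ± 29.3 TPM in TLSMGC and 94.6 ± 15.2 TPM in TLSMGCL. Against 96h it rose by 2.90 in Gastruloid, 2.05 in TLSMG and 1.16 in TLSMGC on the log2 scale, while Hoxb5 fell in each. It was lower in TLSMG than in Gastruloid (-0.85, adjusted p 0.00236), where Hoxb5 was higher. Both were lower with added CHIR (Hoxb5os -0.88, adjusted p 0.00142). The ratio of Hoxb5os to Hoxb5 TPM ran from 1.46 to 1.59 over the 96h libraries and from 33.0 to 39.7 over those of Gastruloid.

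Hoxb3os was at 30.0 ± 2.36 TPM at 96h and at 10.3 to 12.4 TPM on average in the groups at 120 h, and fell by 1.22, 1.42 and 1.36 in Gastruloid, TLSMG and TLSMGC against 96h. Hoxb3, which it overlaps, passed in the last of these alone. In the GENCODE M21 annotation Hoxb3os shares 2250 exonic bases with Hoxb3 (52.9% of that gene's exons) and 953 with Hoxb2 (27.3%), and Hoxb5os shares 100 with Hoxb5 (3.59%). The library kit was stranded, but whether strand was used in counting is not given in the sources used here. The values of Hoxb3, Hoxb2, Hoxb5 and these antisense genes are therefore uncertain where they overlap, and no other member shares exonic bases with them.

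**Figure D4:**
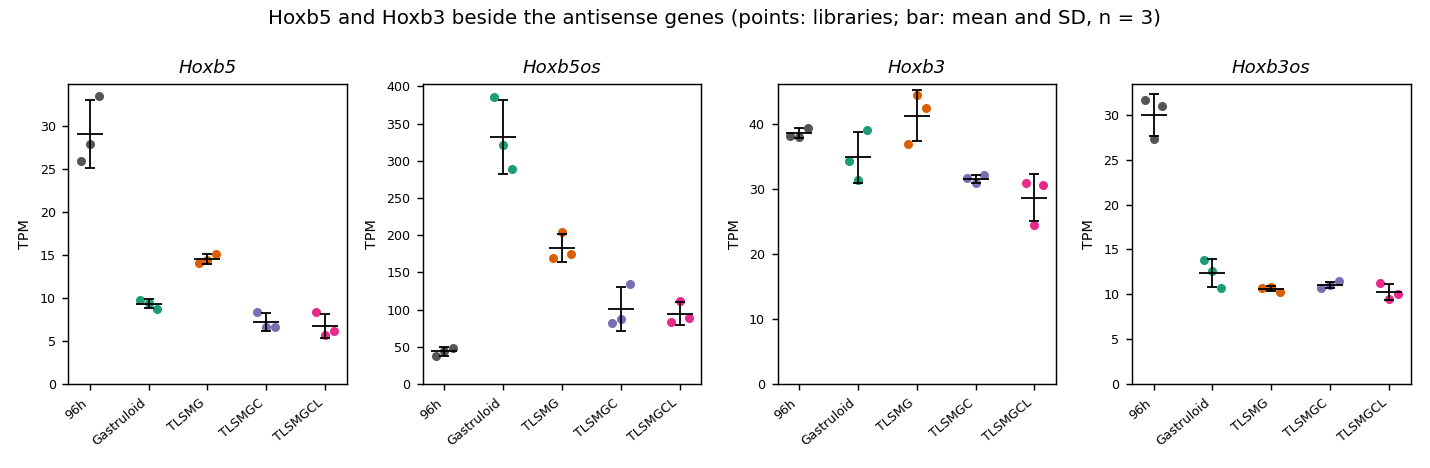
TPM (y axes, from 0, scaled per gene) of Hoxb5, Hoxb5os, Hoxb3 and Hoxb3os in the 5 groups (x axis), 1 point per library with the mean and SD. Hoxb5os averages 43.7 TPM at 96h and 332 TPM in Gastruloid, where Hoxb5 goes from 29.1 to 9.32 TPM.

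Beside the counts for the gene lists below stand the shares of all genes that rose and fell. Against 96h they were 20.8% and 20.5% in Gastruloid, 33.5% and 12.5% in TLSMG, and 20.6% and 20.1% in TLSMGC. They were 31.5% and 7.87% in TLSMG against Gastruloid, 10.4% and 30.5% in TLSMGC against TLSMG, and 0.406% and 0.777% in TLSMGCL against TLSMGC. No list was tested against these shares. Among the 29 genes of the other Hox clusters, 18 were tested. In Gastruloid against 96h 8 rose and 4 fell, in TLSMG against 96h 13 and 3, and in TLSMGC against 96h 10 and 5. In TLSMG against Gastruloid 9 rose and 0 fell, in TLSMGC against TLSMG 2 rose and 13 fell, and in TLSMGCL against TLSMGC 0 rose and 2 fell (Hoxd8 and Hoxd9). Hoxd1, a paralog of Hoxb1, was lower in Gastruloid than at 96h (-2.54) and rose by 0.78 with added CHIR.

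Of the paralogs of Hoxb9, Hoxa9 (3.19) and Hoxc9 (4.15) were higher in Gastruloid than at 96h and Hoxd9 was lower (-1.04). With added CHIR Hoxa9 fell by 0.74 and Hoxc9 by 1.52, like Hoxb9, and Hoxd9 rose by 1.01. Hoxc8, a paralog of Hoxb8, was at 7.21 ± 2.71 TPM at 96h, 56.2 ± 9.16 TPM in Gastruloid, 66.2 ± 7.18 TPM in TLSMG and 24.6 ± 2.22 TPM in TLSMGC. It thus stayed higher in TLSMGC than at 96h (1.69, adjusted p 1.58e-05), a comparison in which Hoxb8 did not pass, and the difference between these genes was not tested. Hoxd8, another paralog of Hoxb8, did not pass in Gastruloid against 96h (0.20, adjusted p 0.205, with overlapping groups). Against 96h Hoxd8 was higher in TLSMG (1.13) and in TLSMGC (0.63), and it fell by 0.50 with added CHIR.

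All 9 TALE cofactor genes, whose proteins bind DNA with HOX proteins, were tested. In Gastruloid against 96h 3 rose and 3 fell, in TLSMG against 96h 4 rose and 1 fell, and in TLSMGC against 96h 0 rose and 6 fell. In TLSMG against Gastruloid 4 rose and 1 fell, in TLSMGC against TLSMG 0 rose and 7 fell, and in TLSMGCL against TLSMGC 0 passed. Meis2 was at 158 ± 2.27 TPM at 96h, 132 ± 6.70 TPM in Gastruloid, 204 ± 1.64 TPM in TLSMG and 84.2 ± 6.79 TPM in TLSMGC. Meis3 went the other way in 2 comparisons, higher in Gastruloid than at 96h (0.34) and lower in TLSMG than in Gastruloid (-0.31). Like Meis2 (-1.27), Meis3 fell with added CHIR (-1.23).

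Of 12 genes known to act on Hox clusters, 2 rose and 8 fell in Gastruloid against 96h, 3 and 7 in TLSMG against 96h, and 2 and 9 in TLSMGC against 96h. In TLSMG against Gastruloid 2 rose and 1 fell, in TLSMGC against TLSMG 4 rose and 4 fell, and in TLSMGCL against TLSMGC 1 rose and 0 fell. Cdx1, a caudal-type homeobox gene, was at 323 ± 86.1 TPM at 96h, 6.44 ± 1.10 TPM in Gastruloid, 3.32 ± 0.555 TPM in TLSMG, 152 ± 33.8 TPM in TLSMGC and 143 ± 6.24 TPM in TLSMGCL. Cdx4 was higher in Gastruloid (17.2 ± 6.05 TPM) than at 96h (5.11 ± 1.92 TPM, adjusted p 0.000437). Aldh1a2, the enzyme that makes retinoic acid in the trunk, was at 1189 ± 146 TPM at 96h, 40.9 ± 5.02 TPM in Gastruloid and 36.6 ± 3.55 TPM in TLSMG. With added CHIR it was at 135 ± 20.7 TPM, and with CHIR and LDN at 237 ± 13.9 TPM. It was the 1 gene of this list that rose in TLSMGCL against TLSMGC (log2 difference 0.82, adjusted p 0.00556). Rarb, a retinoic acid receptor, fell by 1.90 with added CHIR.

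Markers of cell types also differed between the groups, each list in its own way. The 7 presomitic and tailbud markers (T, Tbx6, Msgn1, Hes7, Dll1, Dll3, Nkx1-2) summed to 1306 to 1752 TPM at 96h, 90.9 to 154 TPM in Gastruloid, 137 to 173 TPM in TLSMG, 328 to 429 TPM in TLSMGC and 341 to 391 TPM in TLSMGCL. All 7 fell in Gastruloid and TLSMG against 96h, and 6 rose in TLSMGC against TLSMG. The 8 neural markers summed to 47.4 to 64.2 TPM at 96h, 361 to 541 TPM in Gastruloid, 192 to 291 TPM in TLSMG, 44.2 to 59.8 TPM in TLSMGC and 60.8 to 72.7 TPM in TLSMGCL, and 5 of the 6 tested fell in TLSMGC against TLSMG. The 7 somite markers summed to between 520 and 1028 TPM over the 15 libraries, and 5 fell and 1 rose with added CHIR.

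Endothelial markers (6 genes) summed to 217 to 264 TPM in TLSMG and to at most 65.7 TPM in any library of another group. Markers of gut endoderm summed to 22.3 to 97.7 TPM, of pluripotent cells to 35.4 to 351 TPM and of feeder fibroblasts to 8.48 to 46.6 TPM over all libraries. Of 6 gut endoderm markers, 0 rose and 3 fell in TLSMGC, both against 96h and against TLSMG. Of 6 pluripotent markers, 1 rose and 2 fell in Gastruloid against 96h, and 0 rose and 6 fell in TLSMGC against 96h. With added CHIR 0 of them rose and 5 fell. Of 4 fibroblast markers tested, Thy1 fell and 3 rose in Gastruloid, TLSMG and TLSMGC, each against 96h. The fibroblast sum therefore joins genes that moved in opposite directions. Of the markers of all 7 cell types, Dbx1 (neural) was listed at 0 in all 3 TLSMGC libraries and Lum (fibroblasts) in all libraries of TLSMGC and TLSMGCL. The part of any of these cell types in the HoxB differences was not tested.

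For each tested member, the 3 genes outside the cluster with the most similar log2(TPM + 1) over the 15 libraries were found among 10897 genes. These correlations mostly follow the 5 groups, whose libraries share a condition, and are given as descriptions. For Hoxb1 they were Synm (Pearson's r 0.988), Dll1 (0.980) and Gpat3 (0.980). For Hoxb2 they were Atp1b2, Rbpms2 and Ifitm2, for Hoxb3 Crtc2, Dffa and Arhgap35, and for Hoxb4 Ywhag, Serpine2 and Plxna1. Hoxb5 was most like Nr6a1 (0.981), Sall3 and Gpc3, and Hoxb6 most like Dnajc30, Ssbp4 and Spred3. Hoxb7 was most like the Hox genes Hoxc6 (0.964) and Hoxa7 (0.959) and then Zbtb16 (0.958), Hoxb8 like Samd14, Fam43a and Abat, and Hoxb9 like Dtx4 (0.981), Sbk1 and Hvcn1. Over all members the r of these genes ran from 0.937 to 0.988.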

How the data were processed

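Bulk RNA sequencing of 15 libraries (5 groups of 3) was analysed from gene abundance tables. The deposited TPM values came from StringTie, per the file headers, with a table for each library. The deposited FPKM values (scaled by length and library size) and coverage values (mean read depth per gene) are further columns of these tables. The submitters' processing notes name cutadapt 2.4, STAR 2.7.3a, StringTie 2.0 and the build mm10, and the annotation release is not given in the sources used here. IDs and positions were checked against GENCODE M21.

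Rows of one gene ID were summed, and each HoxB member had 1 row. The tests used limma 3.58.1 (R 4.3.3) on log2(TPM + 1) for genes that averaged 1 TPM or more, all 5 groups in 1 model with a mean trend, two-sided, with Benjamini-Hochberg adjustment within each of 6 comparisons at 0.05, and were checked on simulated data. No count test was run, since the tables hold estimates and no counts, so neither counting intervals nor floors were computed. Coverage per FPKM, a measure of relative depth, differed by up to 2.19 times between libraries (3.12 to 6.84), and 13688 to 14494 genes per library reached 1 TPM. Log2 differences understate changes of low genes.

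Named genes were all members, expressed genes within 100000 bases of the cluster, the 3 genes most like each member in genes with a mean of at least 5 TPM, and examples from the lists of other Hox genes, TALE cofactors, inputs to Hox genes and cell type markers that passed without overlap. Other examples were chosen after their values were seen. The members, lists and comparisons were chosen with earlier results of these data known. Alternatives were a pseudocount of 0.1, a minimum mean TPM of 5, no filter, FPKM, median-of-ratios scaling, a replicate block, fits of 2 groups and leaving out each library. Python 3.11.15 with pandas 2.3.3, numpy 2.4.6 and matplotlib 3.10.9 was used for the rest. Promoters came from RefSeq.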

Additional observations from a re-analysis of the deposited data

How the results depend on the processing

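The 54 log2 differences of the tested members were recomputed under 702 combinations of result and alternative, of which 661 kept direction and side of the threshold, 10 passed the threshold newly, 19 no longer passed and 12 changed sign. None of the sign changes concerned a difference that had passed, and the causes were not tested. Under median-of-ratios scaling Hoxb3 in TLSMG against 96h was at -0.078 and Hoxb2 in TLSMG against Gastruloid at -0.12 (also -0.12 on FPKM). Leaving out single libraries gave ranges from -0.23 to 0.19 for Hoxb8 in TLSMGC against 96h, -0.016 to 0.082 for Hoxb2 in TLSMG against Gastruloid, and in TLSMGCL against TLSMGC -0.014 to 0.12 for Hoxb2, -0.064 to 0.10 for Hoxb4 and -0.23 to 0.011 for Hoxb5. All genes called in TLSMGCL against TLSMGC, 169 in the fit as reported, numbered 42 in the fit of the 2 groups and 56 to 198 when single libraries were left out.

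The labels do not say whether libraries with the same number share a batch. The deviations from group means of libraries with one number had a mean correlation of -0.01 (range -0.18 to 0.10), and the numbers were not taken as pairs. With a replicate block the called members numbered 7 in Gastruloid against 96h, 7 in TLSMG against 96h (Hoxb6 passed, adjusted p 0.0454), 8 in TLSMGC against 96h, 2 in TLSMG against Gastruloid, 8 in TLSMGC against TLSMG and 0 in TLSMGCL against TLSMGC. Of all genes 5659, 6381, 5580, 5382, 5599 and 122 were called with the replicate block in the same order, against 5894, 6577, 5814, 5622, 5842 and 169 without it. Without counts, depth limits cannot be set for Hoxb13 and other genes listed near 0, and 3 libraries per group limit the precision of the rest.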

Other observations

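Inside the cluster or within 100000 bases of its ends lay 15 other gene IDs. Of these, 6 had a mean of at least 1 TPM, the antisense genes described above and 4 more. Gm53 rose against 96h, from 1.25 ± 0.649 TPM to 4.97 ± 1.82 TPM in Gastruloid (log2 difference 1.40, adjusted p 0.00108), 7.04 ± 1.34 TPM in TLSMG (1.87, adjusted p 9.36e-05) and 7.48 ± 1.78 TPM in TLSMGC (1.94, adjusted p 7.94e-05). It did not pass in TLSMGC against TLSMG (0.07, adjusted p 0.853), a comparison in which Hoxb8 and Hoxb9 fell, and the difference between these genes was not tested. Calcoco2, a gene of selective autophagy, had its highest mean in Gastruloid (6.88 ± 1.53 TPM). It was higher there than at 96h (0.83, adjusted p 0.0190) and lower in TLSMG than in Gastruloid (-0.82, adjusted p 0.0224). In TLSMGC (0.882 ± 0.497 TPM) Calcoco2 was lower than in TLSMG (3.46 ± 0.752 TPM, log2 difference -1.27, adjusted p 0.00153). It was also lower there than at 96h (-1.25, adjusted p 0.00155). Gm11539 lay between 24.5 and 39.6 TPM over all libraries, and was higher in Gastruloid than at 96h (0.30, adjusted p 0.0431) and lower in TLSMG than in Gastruloid (-0.32, adjusted p 0.0343), in both cases without overlap. Mir196a-1 was listed at 0 to 2.33 TPM with overlapping groups in all 6 comparisons.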
